A study of Oryza sativa with 4 samples.

Results

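The regions described here are the accessible chromatin regions that lie within 1 Mb of the ends of rice chromosomes in nuclei of the root tip. The peaks of 4 single-nucleus ATAC-seq libraries were joined where they shared at least 1 bp, and a joined region was kept as an end region if it was called in all 4 libraries and its midpoint lay within 1 Mb of position 0 or of the end of the last peak of its chromosome. The first Mb of chromosomes 9, 11 and 12 was left out, so that 21 windows remained. They held 3311 of the 55496 regions called in all 4 libraries (5.97%) on 5.63% of the genome up to the last peaks. Of the end regions, 1423 lay in 9 windows at the start of a chromosome and 1888 in 12 windows at its end.

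A chromosome end carries the telomere, a cap of short repeats, and next to it the subtelomere, where repeats give way to genes. In rice, as in many plants, genes are densest along the arms, while repeats and transposons gather around the centromere. In ATAC-seq, the transposase Tn5 cuts DNA that is not wrapped tightly in nucleosomes, so that promoters and other regulatory elements show as regions with many cut sites. As further background, the tips of the short arms of chromosomes 11 and 12 share a long duplicated segment, the short arm of chromosome 9 carries ribosomal RNA genes, and the short arms of chromosomes 4 and 10 are rich in heterochromatin.

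All libraries came from fixed nuclei of the last 5 mm of primary roots of Nipponbare seedlings 3 days old that had germinated in the dark and grown in nutrient solution at 28 °C. The 2 HS libraries were from seedlings under heat stress, which the study's text gives as 45 °C for 3 h, and the 2 Normal libraries were from seedlings without it. Neither group carried a transgene or mutation in the labels, and each library mixed all cell types of many root tips. The study's text calls the rounds of the HS experiment independent and says that samples were processed in different batches, without saying which library belonged to which batch. Batch was therefore no term in any fit. With the batches of the libraries unknown, an effect of batch cannot be separated from heat stress.

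The nuclei of a library held between 328595993 and 341590315 cut sites in peaks, with a median per nucleus of 27765 and 28143 in HS and of 23709 and 23840 in Normal. Between 163 and 254 barcodes of nuclei were shared by any pair of libraries, at most 2.02% of the smaller library. Replicates were compared at end regions called over the same length in both, within 2%. The chi-square per degree of freedom took fragments as cut sites divided by 2. It was 0.931 between the HS replicates (1534 regions) and 1.09 between the Normal replicates (1594 regions). Replicates thus differed there by about the sampling noise. The filter leaves out regions whose called length differed between replicates. Without it the values were 2.88 for HS and 2.86 for Normal, above that noise. Between HS and Normal libraries the value lay between 43.4 and 49.5 with the filter. The libraries were counted as 2 samples per group because their barcodes differed, but p-values measure only the spread between these libraries, which may be technical.

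The ends of the chromosomes were dense in accessible regions, and the regions there were long. The end windows held 158 regions per Mb, against 148 per Mb in the rest of the genome, a ratio of 1.06. The median length of a region was 1976 bp in the end windows and 1560 bp in the rest, a ratio of 1.27, and regions covered 50.1% of the end windows, against 37.6% of the rest. Long regions made up more of the ends, since 628 end regions (19.0%) were at least 5000 bp long, against 12.3% of regions in the rest, and short ones made up less, since 22.7% of end regions were under 1000 bp, against 32.2% in the rest. The gap between neighbouring regions had a median of 1553 bp in the end windows and 1842 bp in the rest, and 5.44% of gaps in the end windows were over 10 kb, against 9.67% in the rest. Regions are not replicates, so these values are given without a test.

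The longest end region covered 30989 bp of chromosome 3 (chr3:761761-792749), and the next 26738 bp of chromosome 6 (chr6:30316504-30343241). Both were picked after their values were seen. No end region reached the longest of the rest, which had 41429 bp.

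These values did not belong to the last Mb alone. The next Mb inward, between 1 and 2 Mb from the same 21 ends, held 155 regions per Mb with a median length of 1944 bp, and covered 50.5%. Between 2 and 3 Mb there were 160 regions per Mb with a median of 1824 bp, and between 3 and 4 Mb there were 161 per Mb with a median of 1818 bp. On these measures the end windows thus lay close to the arms next to them, and the values of the rest of the genome include the sparse parts of the chromosomes. Without the 13 Mb bins that held fewer regions than 50% of the median bin of their chromosome, the rest had 152 regions per Mb. Just inside the limit of 1 Mb, the 100 kb bin held 332 regions, and just outside it held 329.

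**Figure D1:**
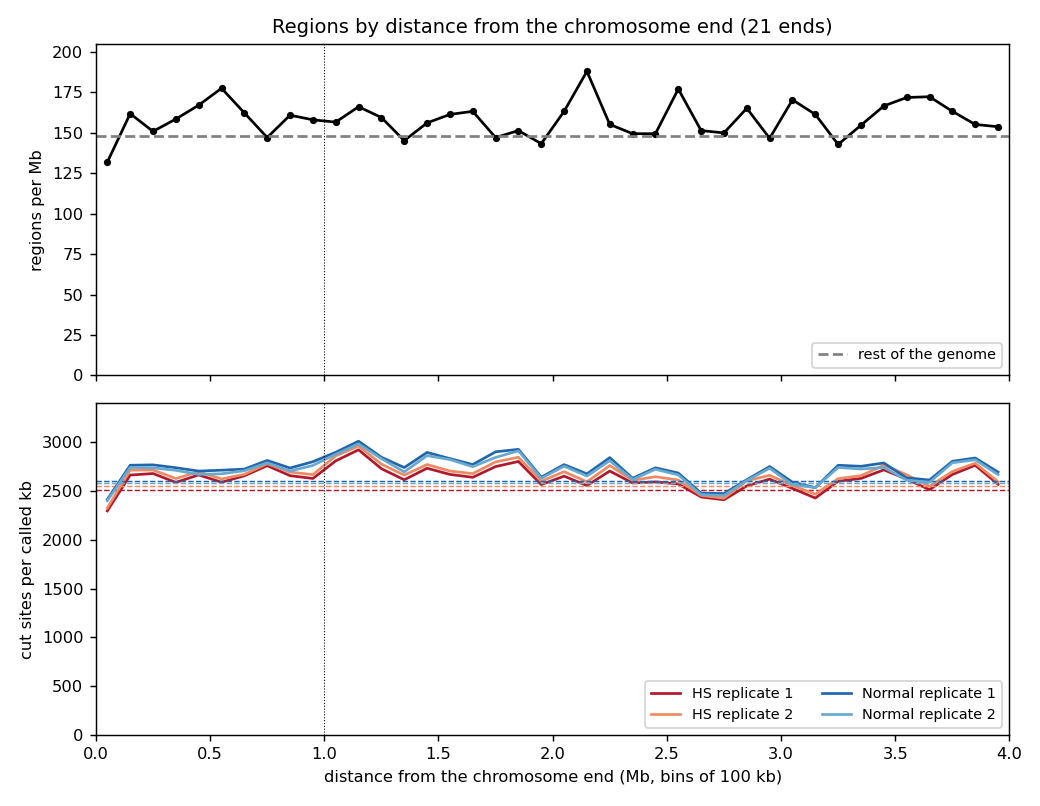
Regions per Mb (upper plot) and cut sites per called kb in each library (lower plot) by distance from the chromosome end in bins of 100 kb, over the 21 ends used. Dashed lines give the rest of the genome and the dotted line the limit of 1 Mb. The outermost bin is the lowest in the first Mb in both plots, at 132 regions per Mb, and the values beyond 1 Mb resemble those inside it.

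The outermost 100 kb stood apart. It held 277 regions, or 132 per Mb, against 161 per Mb in the other 900 kb of the windows, and covered 36.0% of the sequence against 51.6%. The bins of 100 kb further in held between 309 and 373 regions each. Cut sites per called kb in the outermost bin were 2297 and 2327 in HS and 2414 and 2402 in Normal, against 2656 and 2690 in HS and 2753 and 2724 in Normal in the other 900 kb, so that it was lower in every library. The median length of 1967 bp there was close to the 1978 bp of the other 900 kb.

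The windows at the start of chromosomes gave more of this deficit than those at the end. The outermost 100 kb had 109 regions per Mb at the starts and 149 per Mb at the ends. Distance was measured from position 0 at the starts, where the first end region began between 10.8 and 130 kb inward with a median of 15.2 kb, and from the last peak at the ends, where a region lay at distance 0 in 11 of 12 windows. The part of this way of measuring in the difference between the sides was not tested.

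The windows differed widely among themselves. The number of regions in a window of 1 Mb lay between 135 at the start of chromosome 4 and 195 at the end of chromosome 9. Set against the rest of its own chromosome, the density ran from 0.90 at the start of chromosome 1 to 1.30 at the start of chromosome 8 and at the end of chromosome 9. It was above that of the own chromosome in 12 of the 21 windows and below it in 9. Length was the steadier property, since the median region was longer than that of the own chromosome in 19 of 21 windows, the exceptions being the starts of chromosomes 4 (1552 against 1607 bp) and 10 (1231 against 1369 bp).

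The last Mb of a chromosome and the first differed in length. The 12 windows at the end of a chromosome had a median length of 2130 bp and covered 54.1% on average, and the 9 windows at the start had 1779 bp and 44.6%. The densities were 157 regions per Mb in the windows at the end and 158 per Mb in those at the start. The end of chromosome 4 had the longest median, 2915 bp, and the end of chromosome 7 the largest covered share, 61.7%. The start of chromosome 10 had the smallest covered share, 24.7%, and was below the 31.8% of the rest of its chromosome. Of the windows left out, the start of chromosome 9 held 108 regions, fewer than any window used, and the starts of chromosomes 11 and 12 held 185 and 186.

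**Figure D2:**
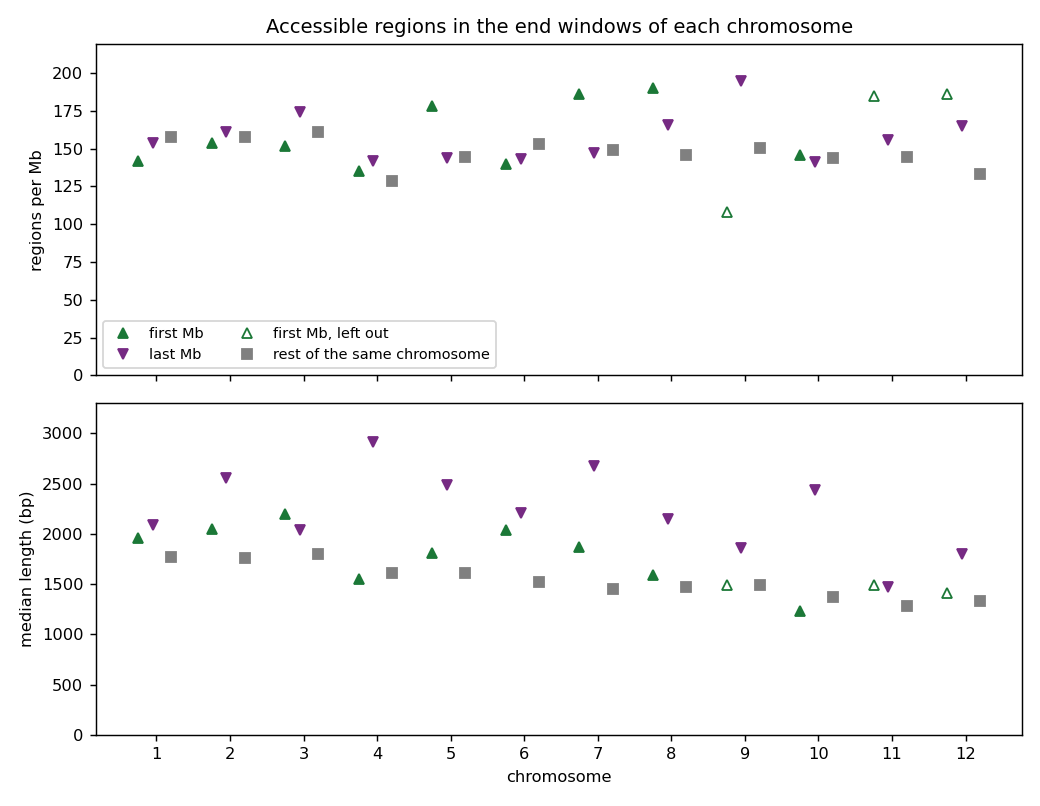
Regions per Mb (upper plot) and median length in bp (lower plot) in the first and last Mb of each chromosome, with the rest of the same chromosome as squares and the windows left out as open triangles. The last Mb is longer in the median than the rest of its chromosome for all 12 chromosomes, while the density lies on both sides of it.

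Signal per length was a little higher at the ends. Counts per 1000000 cut sites (CPM) per called kb, a level that corrects for the depth of a library and for the called length, were 8.02 and 7.98 in HS and 8.02 and 7.96 in Normal at end regions, against 7.66 and 7.63 in HS and 7.64 and 7.60 in Normal in the rest. Every library was thus higher at the ends, by ratios between 1.0457 and 1.0493 in uncorrected cut sites per called kb. The Mb between 1 and 2 Mb from the ends was higher still, with 8.32 and 8.29 in HS and 8.37 and 8.32 in Normal.

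Windows again lay on both sides of their chromosomes. Cut sites per called kb were above those of the rest of the chromosome in all 4 libraries for 12 windows and below in all 4 for 9. The end of chromosome 7 was the highest by this ratio, between 1.25 and 1.29 over the libraries, and the start of chromosome 10 the lowest, between 0.84 and 0.89. The windows at the starts of chromosomes 4 and 10, named above for their short regions, were both below their chromosomes in signal as well.

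The end regions of the highest CPM per called kb were chr6:150268-151356, chr5:162095-163496 and chr4:35359844-35363846. The one on chromosome 6 had 28.7 and 28.3 in HS and 30.6 and 31.1 in Normal. The one on chromosome 5 had 28.2 and 28.1 in HS and 24.2 and 24.6 in Normal, and the one on chromosome 4 had 27.0 and 27.0 in HS and 23.4 and 23.5 in Normal. The mean over all end regions was near 8 on the same scale.

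Because each library mixes cell types, nuclei were grouped by cut sites at marker genes that lie over 2 Mb from every end, so that counts at end regions took no part in forming the groups. Root hairs are tubular outgrowths of epidermal cells that take up water and nutrients, the root cap covers and protects the meristem at the tip, and the endodermis is the inner layer that controls what passes to the vascular tissue. Nuclei with at least 8 cut sites per 10000 at regions of 12 root hair genes were called root hair-like, and those with at least 12 per 10000 at regions of 13 root cap genes root cap-like. Nuclei with at least 1 per 10000 at the single locus LOC_Os01g15610, which the study uses for endodermis, form the endodermis-locus group, which gets no cell type name. A nucleus also needed at least 10 cut sites at the root hair or root cap regions, or at least 4 at this single locus. The position of this locus was read by eye from an axis of the study's plots and not from a table, and every value of the group rests on it. The study picked the root hair and root cap genes from these libraries, and 11 of the 12 root hair genes and all 13 root cap genes had a region called in all 4.

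The root hair-like group held 1183 and 1235 nuclei in HS and 1592 and 1555 in Normal, the root cap-like group 710 and 682 in HS and 867 and 843 in Normal, and the endodermis-locus group 1092 and 1097 in HS and 778 and 829 in Normal. Nuclei that met more than 1 rule were left out, and the 7470 and 7423 nuclei in HS and 9195 and 9095 in Normal that met none are called other nuclei. The groups are ranges of a score and not types. Between 325 and 378 nuclei per library lay within 25% above the root hair limit and between 430 and 508 within 25% below it, and for the root cap limit these were 311 to 430 and 795 to 978. Doublets were not removed. The median nucleus of the endodermis-locus group held 30282 and 30914 cut sites in HS and 26512 and 26965 in Normal. In other nuclei it held 27654 and 28277 in HS and 23492 and 23615 in Normal. A minimum number of cut sites is easier to reach in deeper nuclei, and its part in the make-up of the group was not tested.

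Root hair-like nuclei had the largest share of their cut sites in end regions. It was 7.94% and 7.88% in HS and 7.99% and 7.99% in Normal, against 7.72% and 7.73% in HS and 7.75% and 7.74% in Normal in other nuclei. It was thus higher in 4 of 4 libraries, by 0.216 percentage points on average (exact paired permutation test over 4 libraries, two-sided, p = 0.125, and 0.125 after Benjamini-Hochberg adjustment over 3 groups).

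Root cap-like and endodermis-locus nuclei were below the other nuclei. The share was 7.50% and 7.50% in HS and 7.62% and 7.60% in Normal in root cap-like nuclei, lower than in other nuclei in 4 of 4 libraries by 0.179 points on average, and 7.52% and 7.51% in HS and 7.52% and 7.52% in Normal in endodermis-locus nuclei, lower in 4 of 4 by 0.216 points. The exact paired test gave p = 0.125 for each, which is the smallest p that 4 libraries allow. The library shares of each group did not overlap with those of the other nuclei, while single nuclei overlapped widely. In HS replicate 1 the 5th to 95th percentiles over nuclei were 7.18% to 8.70% in root hair-like and 6.92% to 8.51% in other nuclei. They were 6.89% to 8.33% in root cap-like and 6.83% to 8.23% in endodermis-locus nuclei.

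**Figure D3:**
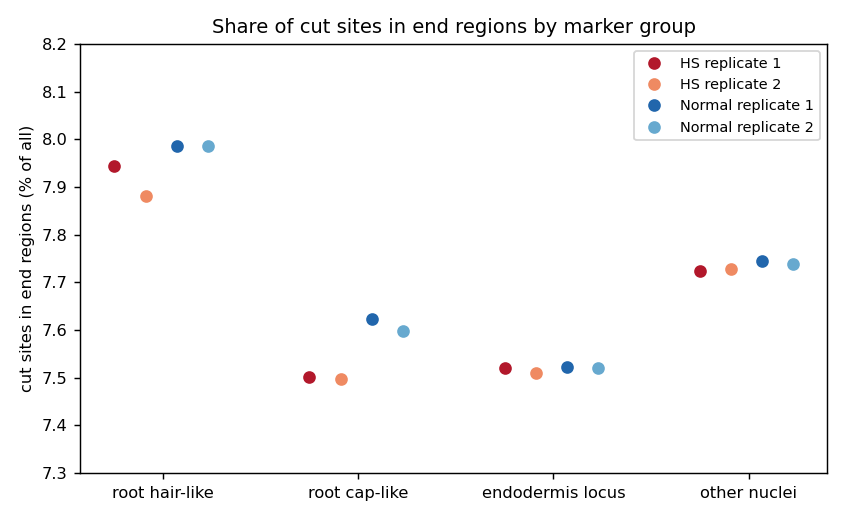
Cut sites in end regions as a percentage of all cut sites in the regions of that library and group, 1 point per library, on an axis that starts at 7.3%. Root hair-like nuclei lie above the other nuclei of their library, and root cap-like and endodermis-locus nuclei below them, in all 4 libraries.

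The ends took part unequally. The share of root hair-like nuclei was above that of other nuclei in all 4 libraries in 12 of the 21 windows, and below in all 4 in 6. The start of chromosome 10 had 1.14 to 1.24 times the share of other nuclei, the end of chromosome 11 had 1.16 to 1.24 times and the start of chromosome 4 had 1.19 to 1.21 times. The start of chromosome 3 was the lowest, at 0.87 to 0.88 times. For root cap-like nuclei 7 windows were above and 12 below in all 4 libraries, and for endodermis-locus nuclei 2 were above and 13 below.

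Single end regions were higher in root hair-like nuclei about as often as regions elsewhere, and lower less often in these counts, which were not tested against each other. With the library as a block, 198 of 3311 end regions were higher in root hair-like nuclei at an adjusted p of at most 0.01 and at least 2-fold (edgeR), which is 5.98% against 6.17% of all regions tested, and 140 were lower, which is 4.23% against 5.81% of all. The median log2 difference was 0.01 at end regions and −0.01 over all regions. End regions without a call held 7.12% and 7.07% of the cut sites of root hair-like nuclei in HS and 7.16% and 7.17% in Normal. In other nuclei they held 7.13% and 7.13% in HS and 7.16% and 7.16% in Normal. The higher share of root hair-like nuclei given above thus lay in the called regions. The calls come from these same libraries, so this split is a description and not a test. Both sides of each comparison come from the same libraries and peaks, so a difference in called length between libraries does not enter here.

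The largest rise was at chr8:27751332-27752100, 83.5 kb from the end of chromosome 8. It had 18.3 and 20.0 CPM, cut sites per 1000000 of the same nuclei, in root hair-like nuclei of HS and 15.1 and 16.4 in those of Normal, against 2.51 and 2.19 in other nuclei of HS and 2.17 and 2.03 in those of Normal. The groups did not overlap, and the log2 difference was 3.03 ± 0.10 (SE, adjusted p = 5.67e-15, edgeR).

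The next was chr5:640145-640999, which overlaps LOC_Os05g02100 and LOC_Os05g02110 or the 2000 bp before them. It had 27.6 and 27.9 CPM in root hair-like nuclei of HS and 20.4 and 18.9 in those of Normal, against 3.60 and 3.64 in other nuclei of HS and 2.45 and 2.56 in those of Normal, a log2 difference of 3.02 ± 0.12. The third was chr11:28378209-28379942, with 38.2 and 38.6 in root hair-like nuclei of HS and 30.3 and 32.5 in those of Normal, against 5.21 and 5.56 in other nuclei of HS and 4.40 and 4.32 in those of Normal (log2 difference 2.90 ± 0.09). In all 3 regions the HS levels lay above the Normal levels in root hair-like and in other nuclei alike. Over all nuclei the heat change was under 2-fold at each, with log2 values of 0.17, 0.48 and 0.23 in counts. Per called kb these were 0.14, 0.33 and 0.12.

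The largest falls in root hair-like nuclei were at 2 neighbours on chromosome 9 and at a longer region on chromosome 8. The region chr9:22013717-22014956 had 0.885 and 2.18 CPM in root hair-like nuclei of HS and 1.62 and 0.840 in those of Normal, against 14.2 and 13.4 in other nuclei of HS and 9.21 and 8.75 in those of Normal (log2 difference −2.98 ± 0.19). Its neighbour chr9:22015520-22017111 had 3.08 and 2.96 in root hair-like nuclei of HS and 2.53 and 2.69 in those of Normal, against 23.8 and 24.0 in other nuclei of HS and 21.4 and 21.4 in those of Normal (−2.94 ± 0.14). The region chr8:27121627-27125468, of 3842 bp, gave −2.77 ± 0.15.

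All 3 regions fell past both limits in the other marker groups as well. The log2 differences of endodermis-locus nuclei were −1.71 ± 0.18 at chr9:22013717-22014956, −1.87 ± 0.13 at chr9:22015520-22017111 and −1.82 ± 0.14 at chr8:27121627-27125468, the last 2 of them among the 3 largest falls of that group. Root cap-like nuclei had −1.42 ± 0.18, −1.35 ± 0.13 and −1.60 ± 0.15 at these regions in the same order. The groups are set against the same other nuclei, so these values share that side.

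In root cap-like nuclei, as over all regions, more end regions were lower than higher. The numbers were 119 higher, 3.59% against 4.42% of all regions, and 223 lower, 6.74% against 6.93% of all (edgeR, same limits). The median log2 difference was −0.02 at end regions and −0.01 over all regions. The largest rise was at chr3:458874-459571, which overlaps LOC_Os03g01720 or the 2000 bp before it. It had 17.2 and 15.9 CPM in root cap-like nuclei of HS and 14.3 and 12.6 in those of Normal, against 1.65 and 1.94 in other nuclei of HS and 1.89 and 1.90 in those of Normal, so that the groups did not overlap (log2 difference 3.03 ± 0.12, adjusted p = 9.94e-14).

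The next rises rested on fewer counts. The region chr11:28619540-28620073 had 6.22 and 5.70 CPM in root cap-like nuclei of HS and 4.43 and 4.56 in those of Normal, against at most 0.967 in other nuclei of any library (2.65 ± 0.17). The region chr7:146456-147123 had 5.89 and 5.46 in root cap-like nuclei of HS and 1.86 and 3.71 in those of Normal, against 1.05 and 0.924 in other nuclei of HS and 0.322 and 0.573 in those of Normal (2.59 ± 0.21). At this region both groups of nuclei were higher in HS than in Normal. Its called length was longer too, at 666 and 599 bp in HS against 263 and 482 bp in Normal. Over all nuclei the heat change did not pass the limit on adjusted p in counts (0.0697) or per called kb (0.0944, edgeR).

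The largest falls in root cap-like nuclei were near the limit of detection. At chr8:869992-870237, a short region of 246 bp, root cap-like nuclei held 2 and 0 cut sites in HS and 1 and 1 in Normal, against 58 and 124 cut sites in other nuclei of HS and 99 and 164 in those of Normal (fitted log2 difference −3.09 ± 0.53, and −3.87 without HS replicate 1). The regions chr8:841246-841691 and chr11:28153966-28154432 held between 0 and 9 cut sites in root cap-like nuclei of a library, against 147 to 396 in other nuclei, with fitted log2 differences of −2.39 ± 0.41 (−3.47 without Normal replicate 2) and −2.38 ± 0.46.

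The endodermis-locus group had the fewest called end regions. There were 62 higher, 1.87% against 2.61% of all regions, and 70 lower, 2.11% against 2.31% of all. With higher limits for all 3 marker groups, which also change the other nuclei, the numbers were 74 higher, 2.24% against 3.14% of all, and 171 lower, 5.17% against 5.58% of all. A pair of regions 4 kb apart at the start of chromosome 4 gave 2 of the 3 largest rises. The region chr4:356400-357974 had 19.3 and 18.4 CPM in endodermis-locus nuclei of HS and 23.8 and 22.0 in those of Normal, against 4.01 and 3.82 in other nuclei of HS and 4.85 and 4.28 in those of Normal (log2 difference 2.27 ± 0.09). Its neighbour chr4:351352-352280 had 13.9 and 13.3 in endodermis-locus nuclei of HS and 13.6 and 15.2 in those of Normal, against 2.77 and 2.84 in other nuclei of HS and 2.92 and 3.28 in those of Normal (2.23 ± 0.11). The groups did not overlap at either region.

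The other large rise of that group was at chr3:36477106-36477561 (2.27 ± 0.20), with 3.14 and 3.77 CPM in endodermis-locus nuclei of HS and 1.56 and 1.30 in those of Normal. Its largest fall was at chr4:906859-907287 (−2.28 ± 0.25), where the group held 13 and 11 cut sites in HS and 3 and 9 in Normal.

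**Figure D4:**
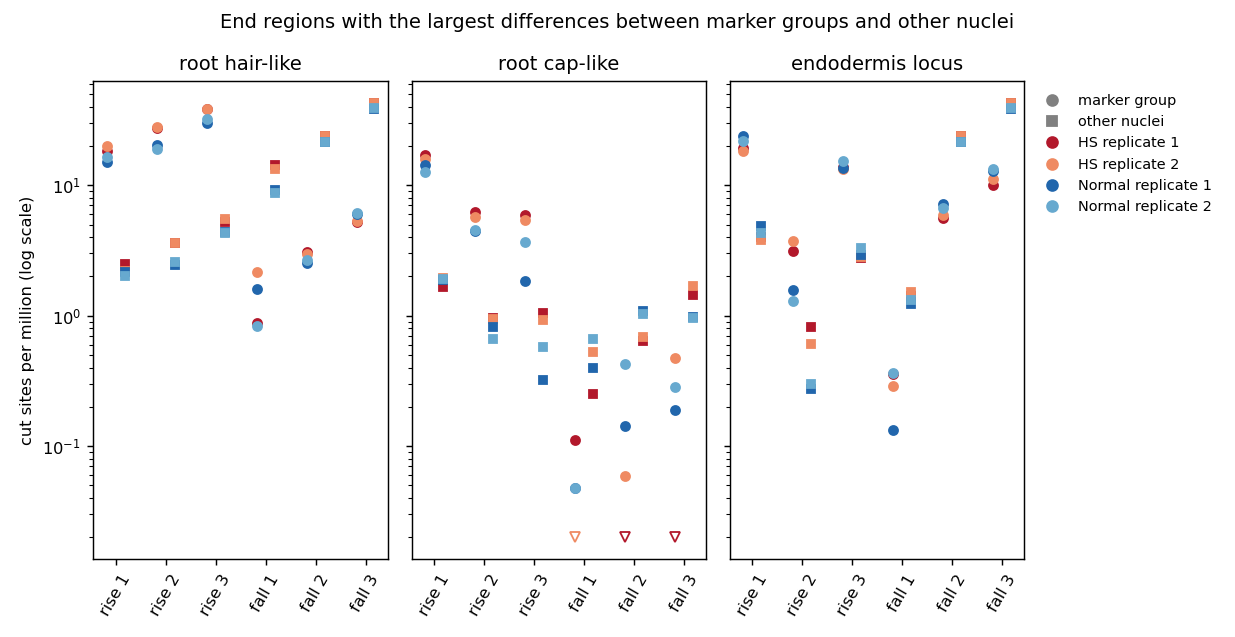
CPM (log axis, cut sites per 1000000 of the same group and library) at the end regions that rose most (3) and fell most (3) in each marker group, ranked by log2 difference, with the marker group as circles left of the other nuclei as squares and 1 colour per library. Open triangles at the bottom mark libraries with 0 cut sites in the marker group. The regions were picked for their differences in these same libraries, so the lack of overlap at the 18 pairs shown follows from the choice.

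Of the 1871 genes whose positions the study's tables give, 134 lay in end regions with their body or the 2000 bp before it. Those that the study names for a cell type were examined one by one. LOC_Os10g42750, which the study names for root hair, overlapped 3 end regions between 163 and 168 kb from the end of chromosome 10. At the region on its edge, chr10:23340790-23342506, which also touches LOC_Os10g42730, root hair-like nuclei had 33.2 and 31.4 CPM in HS and 32.2 and 30.6 in Normal, against 10.6 and 10.5 in other nuclei of HS and 9.84 and 9.71 in those of Normal. This is a rise of 1.72 ± 0.10 on the log2 scale (adjusted p = 2.77e-11, edgeR), with no overlap between groups. Root cap-like nuclei had 0.24 ± 0.12 and endodermis-locus nuclei −0.08 ± 0.11 there, neither past the limits.

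The other regions of that gene were weaker. At chr10:23345994-23348118 the log2 difference of root hair-like nuclei was 0.69 ± 0.13, under 2-fold, and at chr10:23343376-23343785, with 6 to 57 cut sites in root hair-like nuclei of a library, it was 0.34 ± 0.20. At this short region root cap-like nuclei fell by 1.31 on the log2 scale (adjusted p = 0.000743), a call that was lost without Normal replicate 1 (−1.34, adjusted p = 0.0101). Endodermis-locus nuclei fell there by 1.02 (adjusted p = 0.00253), which was lost without HS replicate 1, Normal replicate 1 or Normal replicate 2 (values between −0.89 and −1.16).

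LOC_Os01g73700, which the study names for root cap, overlapped 2 end regions on chromosome 1. At chr1:42929897-42931587 root cap-like nuclei had 11.5 and 16.2 CPM in HS and 13.5 and 14.6 in Normal, against 4.75 and 4.76 in other nuclei of HS and 5.19 and 5.06 in those of Normal. The rise was 1.52 ± 0.12 (adjusted p = 1.91e-09, edgeR) with no overlap. Root hair-like nuclei had 0.73 ± 0.12 at the same region, under 2-fold. At the other region, chr1:42927473-42928765, no group passed both limits, with log2 differences between 0.06 and 0.33.

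LOC_Os08g02300, a gene of the NAC family of transcription factors that the study names for epidermis, lies near 870 kb on chromosome 8. Its position was read from an axis and not from a table, so its regions were chosen by hand. At chr8:870884-874600, root hair-like nuclei had 11.0 and 11.0 CPM in HS and 8.95 and 10.3 in Normal, against 24.2 and 24.4 in other nuclei of HS and 22.2 and 21.6 in those of Normal, a fall of 1.10 on the log2 scale (adjusted p = 2.22e-10). Root cap-like nuclei fell there by 1.04, which was under 2-fold without Normal replicate 1 (−0.97) or Normal replicate 2 (−0.99), and endodermis-locus nuclei had 0.12 ± 0.07.

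On the other side of the gene, chr8:865825-869282 fell by 1.40 in root cap-like nuclei (adjusted p = 4.47e-08). Root hair-like nuclei had −0.98 ± 0.12 there, which passed 2-fold without Normal replicate 1 (−1.02) or Normal replicate 2 (−1.13). The short region between them, chr8:869992-870237, was named above for its fall in root cap-like nuclei. It was higher in endodermis-locus nuclei, with 0.846 and 1.80 CPM in HS and 1.47 and 2.28 in Normal, against 0.252 and 0.530 in other nuclei of HS and 0.398 and 0.667 in those of Normal (1.77 ± 0.21, adjusted p = 1.08e-06). The marker groups thus differed in direction within 10 kb of sequence around this gene.

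The share of cut sites in end regions was 7.71% and 7.71% in HS and 7.75% and 7.74% in Normal, a difference of −0.038 percentage points (exact permutation test, two-sided, p = 0.33, the smallest that 2 against 2 libraries allow). The HS libraries were both below the Normal ones. The difference was −0.207 points with windows of 2 Mb and −0.0057 points with windows of 0.5 Mb. Over single nuclei the median share was 7.68% in both HS libraries and 7.74% and 7.73% in Normal.

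At single regions, 41 end regions were higher in HS at an adjusted p of at most 0.01 and at least 2-fold (edgeR), which is 1.24% against 1.93% of all regions, and 82 were lower, which is 2.48% against 2.63% of all. The median log2 change was −0.02 at end regions and 0.00 over all regions. The spread of the log2 changes was 0.48 (SD across regions) at end regions and 0.56 over all regions. At an adjusted p of at most 0.01 with no limit on the fold, 739 end regions were higher (22.3% against 24.6% of all) and 814 lower (24.6% against 22.5% of all).

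The size of the called peak moved with these changes and has to be read beside them. A count is the number of cut sites inside the peaks that were called in that library, and HS and Normal peaks were called separately. All 41 end regions that were higher had a longer mean called length in HS, and all 82 that were lower had a shorter one. For chr10:478196-479290 the means were close, and 1 Normal library had a longer peak than both HS libraries. Across the 3311 end regions, the log2 change in counts and the log2 change in called length had a Pearson correlation of 0.86 and a Spearman correlation of 0.78, as a description over regions that share libraries. Over all 55496 regions these correlations were 0.88 and 0.82, so the link was not particular to the ends. The counts of longer and shorter called regions were made at end regions only. A value per called kb is taken over the stretch called in each library. HS and Normal are therefore not compared over the same sequence on that scale, and a small change on it does not bear on the calls in counts.

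Since called length moved with the counts, keeping regions of nearly fixed called length leaves out most regions with a large change beforehand, so the following count does not bear on the calls above. Of the 1361 end regions with a called length within 10% among the 4 libraries, 0 did (edgeR), against 0.0858% of the 22142 regions of that kind. At an unadjusted p under 0.05 there were 1000 of the 1361, or 73.5% against 72.7% of all of that kind. At an adjusted p of at most 0.01 alone, 405 were higher (29.8% against 31.5% of all of that kind) and 447 lower (32.8% against 30.8%), all by less than 2-fold.

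The 2 largest rises in counts were both cases of a peak that was barely called in Normal. The region chr2:35581092-35582599 held 1519 and 1582 cut sites in HS and 106 and 4 in Normal (log2 change 4.86 ± 0.79, adjusted p = 0.00384), with a called length of 1480 and 1508 bp in HS and 171 and 8 bp in Normal. Without Normal replicate 1 the change was 8.60 and without Normal replicate 2 it was 3.91. Per called kb its change was 0.80 ± 0.08, under 2-fold. The region chr6:955468-956223 held 836 and 816 in HS and 11 and 82 in Normal (4.19 ± 0.76), with a called length of 756 and 730 bp in HS and 16 and 145 bp in Normal, and 0.99 ± 0.09 per called kb. Without Normal replicate 1 its change in counts was 3.38 and without Normal replicate 2 it was 6.26.

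The next 3 rises were chr10:22698058-22699913 (2.24 ± 0.05), chr4:511689-512497 (1.99 ± 0.16) and chr10:23066174-23068969 (1.86 ± 0.04). The one on chromosome 4 had 712 and 725 cut sites in HS and 174 and 198 in Normal, with 789 and 800 bp called in HS and 306 and 361 bp in Normal, and was under 2-fold per called kb (0.74 ± 0.06). Both on chromosome 10 were over 2-fold per called kb and are described below.

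The 5 largest falls all had short peaks in HS. The region chr2:35416196-35416616 held 41 and 29 cut sites in HS and 357 and 411 in Normal (−3.40 ± 0.35), on 66 and 42 bp called in HS and 401 and 421 bp in Normal. The region chr3:13218-14725, the only one of them in the outermost 100 kb, held 198 and 172 in HS and 1842 and 1642 in Normal (−3.19 ± 0.12), on 308 and 244 bp in HS and 1508 and 1332 bp in Normal. Per called kb these were −0.48 ± 0.14 and −0.82 ± 0.06.

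The other falls were chr12:26923076-26923510 (−3.01 ± 0.33), chr6:30776167-30776546 (−2.74 ± 0.46) and chr11:28436956-28438602 (−2.73 ± 0.11). Per called kb they gave −0.76 ± 0.12, −0.11 ± 0.15 and −0.58 ± 0.07, so that none of the 5 was over 2-fold on that scale. That scale sets short HS peaks against longer Normal peaks, so it does not bear on the calls in counts. The one on chromosome 6 lost its call in counts without Normal replicate 1 (adjusted p = 0.0154) or Normal replicate 2 (adjusted p = 0.0183), and its change was −3.40 without HS replicate 1.

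**Figure D5:**
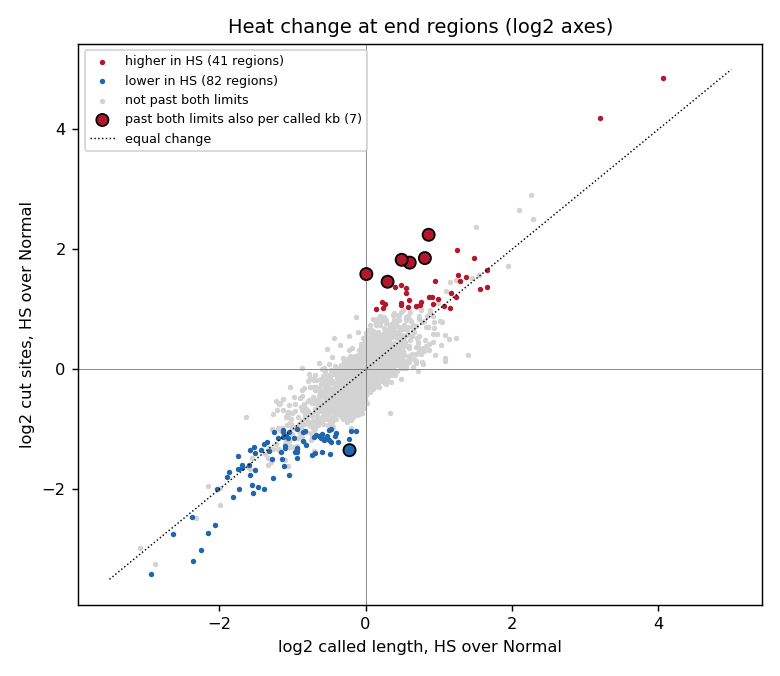
Change in cut sites (log2, HS over Normal) against change in called length (log2, HS over Normal) for the 3311 end regions, with the 41 higher and 82 lower regions coloured and the 7 that passed both limits also per called kb as large circles. All coloured points on the upper side lie right of 0 and all on the lower side left of 0, and the large circles lie away from the dotted line of equal change.

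With both limits required of the counts and of the cut sites per called kb, 6 end regions were higher (0.181% against 0.171% of all regions) and 1 was lower (0.0302% against 0.169% of all). This rule was chosen after the data were seen, and the 7 regions are named for that reason. Of the 123 end regions called in counts, 35 of the 41 higher and 64 of the 82 lower kept their direction per called kb, a count not made over all regions.

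The one with the most cut sites was chr4:488005-493995, a region of 5991 bp near 491 kb of chromosome 4 whose nearest gene in the study's table is LOC_Os04g01740. It held 23805 and 23667 cut sites in HS and 7248 and 7027 in Normal (1.78 ± 0.02, adjusted p = 3.81e-06), on 5948 and 5991 bp called in HS and 3957 and 3898 bp in Normal. CPM per called kb were 12.2 and 11.8 in HS and 5.38 and 5.31 in Normal (1.18 ± 0.03, adjusted p = 0.000656). The groups did not overlap on either scale.

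The largest change in counts among the 7 was chr10:22698058-22699913, nearest to LOC_Os10g41640, with 5442 and 5147 cut sites in HS and 1143 and 1165 in Normal. In CPM per called kb it had 8.94 and 8.72 in HS and 3.38 and 3.44 in Normal (1.38 ± 0.04). Nearer to the end of the same chromosome, chr10:23066174-23068969, nearest to LOC_Os10g42320, held 7006 and 6914 in HS and 2049 and 1922 in Normal, and in CPM per called kb 7.67 and 7.58 in HS and 3.80 and 3.63 in Normal (1.04 ± 0.04).

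The region chr7:511638-512588 held 3659 and 3607 cut sites in HS and 1042 and 1072 in Normal, and in CPM per called kb 11.7 and 11.9 in HS and 4.70 and 4.72 in Normal (1.33 ± 0.04). The region chr5:840263-841455 held 2608 and 2706 in HS and 1016 and 976 in Normal, with 1.46 ± 0.04 in counts and 1.16 ± 0.04 per called kb. Its called length was 1193 and 1181 bp in HS and 968 and 958 bp in Normal.

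The sixth, chr10:478196-479290, nearest to LOC_Os10g01730, had unsteady peaks. It held 1472 and 1384 cut sites in HS and 637 and 343 in Normal (1.59 ± 0.28), with called lengths of 774 and 660 bp in HS and 967 and 456 bp in Normal, and 1.56 ± 0.08 per called kb. The single lower region, chr5:29607948-29609223, held 1145 and 1182 in HS and 3013 and 3099 in Normal (−1.35 ± 0.04), and in CPM per called kb 3.29 and 3.26 in HS and 7.23 and 7.16 in Normal (−1.13 ± 0.04).

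The windows differed in how many regions were called after heat. Over all regions 4.56% were called in either direction. The start of chromosome 10 had 12 called of its 146 regions (8.22%), the start of chromosome 4 had 11 of 135 (8.15%) and the start of chromosome 7 had 11 of 186 (5.91%), while the ends of chromosomes 6 and 8 had 1 of 143 and 1 of 166. The median log2 change was below 0 in 16 windows and above 0 in 5. Of 3290 neighbouring pairs of end regions, 3 were both higher, 3 both lower and 0 in opposite directions. Pairs were not counted over the rest of the genome, and whether neighbours changed together was not tested. The heat change of the 8 regions at the marker genes named above did not pass both limits with all libraries. At chr10:23343376-23343785 it was −1.34 (adjusted p = 0.109, edgeR), and it passed both without HS replicate 1 (−2.56, adjusted p = 0.0019).

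Heat changes seldom differed between marker groups, at the ends as over all regions. By the interaction of heat and marker group, 9 end regions differed between root hair-like and other nuclei at both limits (0.272% against 0.393% of all regions), 21 between root cap-like and other nuclei (0.634% against 0.77%) and 4 between endodermis-locus and other nuclei (0.121% against 0.139%). With sums thinned to the smallest group these were 9 (0.272% against 0.241%), 16 (0.484% against 0.564%) and 1 (0.0303% against 0.058%).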

How the data were processed

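Per the file headers and the labels, the deposited files are, for each library, a matrix of counts of cut sites per peak and barcode, the barcodes and the peaks. The authors made them with Cell Ranger ATAC 1.2.0, which aligned reads and called peaks in each library separately, without normalization. Which build the reads were aligned to is not stated in the sources used here, so no sequence was read from a genome and coordinates are those of the deposited peaks, written from 1. The temperature and duration of heat stress come from the study's text, since the labels say only HS.

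Peaks were joined at 1 bp or more, and counts were summed over nuclei, taken as the barcodes richest in cut sites up to the number of nuclei that the study's statistics give for a library. All 55496 regions called in all 4 libraries were fitted together with edgeR 4.0.16 (R 4.3.3) by its quasi-likelihood test, with TMM factors, filterByExpr and Benjamini-Hochberg adjustment, and a call needed an adjusted p of at most 0.01 and at least 2-fold. Marker groups were fitted with library as a block and without the marker regions in the counts of calls. Scripts ran in Python 3.11.15 with scipy 1.17.1. Simulated counts had the same relative spread between libraries in every region and no difference in called length. On them, 100% of regions changed 3-fold were recovered in the heat, root hair-like and root cap-like comparisons. Of those changed 2-fold, 44%, 46% and 54% were recovered, since their estimates scatter around the limit. Recovery at short or unsteady peaks was not simulated.

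Named regions were the 5 of largest rise and the 5 of largest fall after heat, 3 of each per marker group, the 3 of highest cut sites per length, and regions at genes the study names with a position. The members and lists were chosen with earlier results of these data known. Alternatives covered windows, barcodes, normalization, filters, thresholds, DESeq2 1.42.0, called length and single libraries left out. Counts of cut sites are not independent molecules of each nucleus, and statements on depth cover counting error only.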

Additional observations from a re-analysis of the deposited data

Results flagged for a closer look

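Some end regions changed after heat to a different extent in a marker group than in other nuclei, by the test of the interaction (edgeR). There were 9 such regions for root hair-like nuclei (0.272% against 0.393% of all regions) and 21 for root cap-like nuclei (0.634% against 0.77%). For endodermis-locus nuclei there were 4 (0.121% against 0.139%). The shares at the ends were thus not above those of all regions. With thinned sums the counts were 9, 16 and 1, and the share for root hair-like nuclei was 0.272% against 0.241% of all regions. The region with the largest difference in each group was picked after its values were seen.

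In root hair-like nuclei it was chr2:34929352-34931356, nearest to LOC_Os02g57305 in the study's table. It had 4.48 and 4.58 CPM in root hair-like nuclei of HS and 18.6 and 22.0 in those of Normal, and 5.17 and 5.29 in other nuclei of HS and 7.73 and 8.05 in those of Normal. The heat change differed by −1.55 ± 0.15 on the log2 scale (SE, adjusted p = 4.1e-13). Its called length was 1723 and 1775 bp in HS and 2003 and 1999 bp in Normal, the same for both groups of nuclei of a library.

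In root cap-like nuclei it was chr3:36324495-36325237 (2.37 ± 0.49, adjusted p = 0.000243), with 15 and 21 cut sites in root cap-like nuclei of HS and 18 and 16 in those of Normal, and 50 and 167 in other nuclei of HS and 429 and 443 in those of Normal. In endodermis-locus nuclei it was chr10:841408-842066 (1.75 ± 0.39, adjusted p = 0.00181), with 87 and 57 cut sites in endodermis-locus nuclei of HS and 22 and 9 in those of Normal, and 251 and 258 in other nuclei of HS and 313 and 312 in those of Normal. Both rest on few cut sites. The called length at the region on chromosome 3 was 173 and 398 bp in HS and 697 and 740 bp in Normal. At the region on chromosome 10 it was 495 and 449 bp in HS and 633 and 654 bp in Normal.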

How the results depend on the processing

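Shares called with the offset, at other limits on p or fold, or without single libraries were not counted over all regions. Per called kb and with the offset, HS and Normal are not compared over the same stretch. After heat, 3.71% of end regions were called, against 4.56% of all regions. This share was 0% with the called length within 10%, a filter that by construction leaves out most large changes. It was 0.302% with the called length as an offset and 0.211% with the limits held for counts and per called kb, these last 2 chosen after seeing the data. It was 64.5% at an adjusted p of at most 0.05 with no limit on the fold and 9.70% at 1.5-fold. Without single libraries it lay between 3.26% and 4.38%. The heat change of the share of cut sites, −0.038 points, was 0.00081 points within 10% of called length, −0.207 with windows of 2 Mb and −0.0057 with 0.5 Mb. The endodermis-locus calls, 3.99%, were 7.41% with higher limits for all 3 markers, and their heat differences 0.0303% with thinned sums.

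The ratio of densities, 1.063, was 1.036 with windows of 0.5 Mb, 1.042 for regions called in any library, 1.075 for own peaks, 1.039 without sparse bins, and 1.062 to 1.071 without single libraries. The ratio of median lengths, 1.267, was 1.319 with 0.5 Mb, 1.318 in any library and 1.224 with the 3 left-out windows. The ratio of cut sites per kb, 1.047, was 1.033 with 0.5 Mb, 1.078 with 2 Mb, 1.050 in any library and for own peaks, 1.038 with the 3 left-out windows and 1.046 without sparse bins. All stayed above 1.

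Among the named regions, signs turned only at marker genes and at values that had not passed both limits. With the called length as an offset, the heat change was −0.55 at chr1:42927473-42928765 (0.14 in counts), 0.0031 at chr1:42929897-42931587, −0.15 at chr8:865825-869282 and 0.024 at chr8:869992-870237. Without single libraries it lay between −0.92 and 0.14 at chr8:869992-870237 and between −0.95 and 0.056 at chr10:23345994-23348118. Root cap-like nuclei at chr10:23345994-23348118 gave 0.073 in Normal libraries, 0.074 with thinned sums and −0.15 to 0.030 without single libraries. Endodermis-locus nuclei gave −0.017 in Normal libraries at chr8:870884-874600, and without single libraries −0.22 to 0.032 at chr10:23340790-23342506 and −0.13 to 0.11 at chr1:42929897-42931587.

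Replicate numbers did not pair the libraries (correlation of deviations 0.017). With the replicate block, 3.53% of end regions were called, 40 higher and 77 lower, a share that was not counted over all regions. Called length, set in each library, limits every heat comparison in counts, and regions with few cut sites limit the falls in root cap-like nuclei.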
